A study of Mus musculus with 9 samples.

Results

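The change in gene expression from proliferating myoblasts to differentiating muscle cells was compared between 2 knockout populations of C2C12 cells and their control. C2C12 is an established mouse myoblast line. For each gene the differentiation response was taken as the log2 difference between the late phase, which is the mean of days 3 and 5, and day 0. The response difference was the response of a knockout minus the response of the control. All 9 libraries of the series entered, and 13324 of the 47729 genes in the table were measured deeply enough to be tested, reaching 1 CPM (a read count scaled to library depth) in 3 or more libraries. A response can differ because the knockout started from another level, because it ended at another level, or both, so each response difference was split into a start difference (knockout minus control on day 0) and an end difference (knockout minus control in the late phase). The response difference is the end difference minus the start difference exactly, and the start difference therefore forms part of it.

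The control, called WT here, was treated with a guide RNA that has no target. By CRISPR-Cas9, the Per1KO population had the clock gene Per1 knocked out and the Per2KO population had Per2 knocked out. Each population was sampled while growing in 10% fetal bovine serum (day 0) and after 3 and 5 days in 5% horse serum, with 1 library per population and day. The labels name both whole muscle and the C2C12 line as the source. The growth protocol describes cultured cells. Each genotype is 1 population, and whether it was a clone or a pool is not given in the sources used here, so a p-value speaks of these populations and not of independently made clones. Days 3 and 5 stand in for replicates of the late phase, and each day 0 library is assumed to vary as the late libraries do.

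When growth serum is withdrawn, myoblasts leave the cell cycle, switch on the regulator myogenin, fuse into myotubes and build sarcomeres, the contractile units of muscle. PER1 and PER2 proteins are repressor components of the circadian clock, which act on the CLOCK and BMAL1 transcription factors. The integrated stress response, whose transcription factor is ATF4, raises genes of amino acid synthesis and uptake when amino acids are short or protein folding is disturbed.

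The WT libraries held 5020385 to 6773320 counts and those of the knockouts 41997763 to 48051824, and only WT titles carry a lane suffix. Depth, lane and genotype therefore cannot be told apart. A factor that scales a gene equally in all 3 WT libraries cancels in its response difference. It does not cancel in the start and end differences, which it shifts by the same amount. The split into start and end, and levels below or above WT, can therefore carry such a factor. The higher floor and larger counting error of the WT libraries cancel in none of these differences. A count of 0 allows up to 3 counts, or 0.424 to 0.66 CPM in WT and 0.0591 to 0.0731 CPM in the knockouts. These limits cover counting error only. The 9 muscle markers (Des, Myod1, Myf5, Cdh15, Myog, Ckm, Myh3, Acta1, Ttn) summed to between 3947 and 20660 CPM in WT and between 1811 and 15530 CPM in the knockouts, and all 9 were detected. The 6 fibroblast markers summed to 73.4 to 356 CPM in WT and to 16 to 39.8 CPM in the knockouts, with Thy1 and Tcf21 at 3 counts or fewer throughout; the part of that difference in the results was not tested. Sums over macrophage, endothelial and Schwann cell or neuron markers were at most 15.7 CPM in every library, with the defining genes Ptprc, Adgre1, Sox10 and Rbfox3 at 3 counts or fewer. Osteoblast markers summed to 492 to 3097 CPM over all libraries with Alpl, Bglap and Ibsp at 3 counts or fewer, chondrocyte markers to 50.5 to 153 CPM with Acan, Col2a1 and Comp likewise, and adipocyte markers to 60.8 to 184 CPM with Adipoq, Cfd, Cidec, Lep and Plin1 likewise. In bulk RNA, fewer cells of a type and less RNA per cell cannot be told apart.

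Per1 mRNA stood at 35.6, 33.8 and 31 CPM in WT on days 0, 3 and 5, at 20.9, 32.4 and 28.9 CPM in Per1KO, and at 16.5, 30.4 and 32.9 CPM in Per2KO. Per2 mRNA stood at 9.74, 11.5 and 20.5 CPM in WT, at 6.59, 9.44 and 10.6 CPM in Per1KO, and at 3.5, 9.13 and 8.38 CPM in Per2KO. Neither transcript separated one knockout from the other. Reads summed over a whole gene do not show whether an edit is present, so the genotypes are used as labelled.

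Both knockouts underwent a broad differentiation response. By edgeR's quasi-likelihood test with Benjamini-Hochberg adjustment at 0.05, 169 genes rose (1.27% of those tested) and 128 fell (0.961%) in WT. In Per1KO 1375 rose (10.3%) and 1058 fell (7.94%), and in Per2KO 1317 rose (9.88%) and 1026 fell (7.7%). Numbers of genes moving at least 2-fold lay closer together, with 1483 up and 1096 down in WT, 1789 and 1340 in Per1KO, and 1678 and 1297 in Per2KO. When the knockout libraries were thinned to the mean WT total, 614 genes were called in WT, 1717 in Per1KO and 1633 in Per2KO.

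Differences of response were tested for each knockout against WT, for both together and between the knockouts. No gene passed for Per1KO alone (0.0% of 13324) or for Per2KO alone (0.0%), although 1426 and 1783 genes had an unadjusted p under 0.05, and DESeq2 called 248 and 476. For both knockouts together 24 genes passed (0.18%), 21 with a higher and 3 with a lower knockout response, and 1998 genes had an unadjusted p under 0.05. Between Per1KO and Per2KO no gene passed (0.0%), 219 had an unadjusted p under 0.05, and DESeq2 called 3. The WT libraries are shared by both knockout comparisons, so their values are given side by side and are not independent. All 24 calls were lost when any 1 of the 6 late libraries was left out, while the sign of each of the 24 stayed the same. Gene groups below are therefore described mainly by counts and levels.

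**Figure D1:**
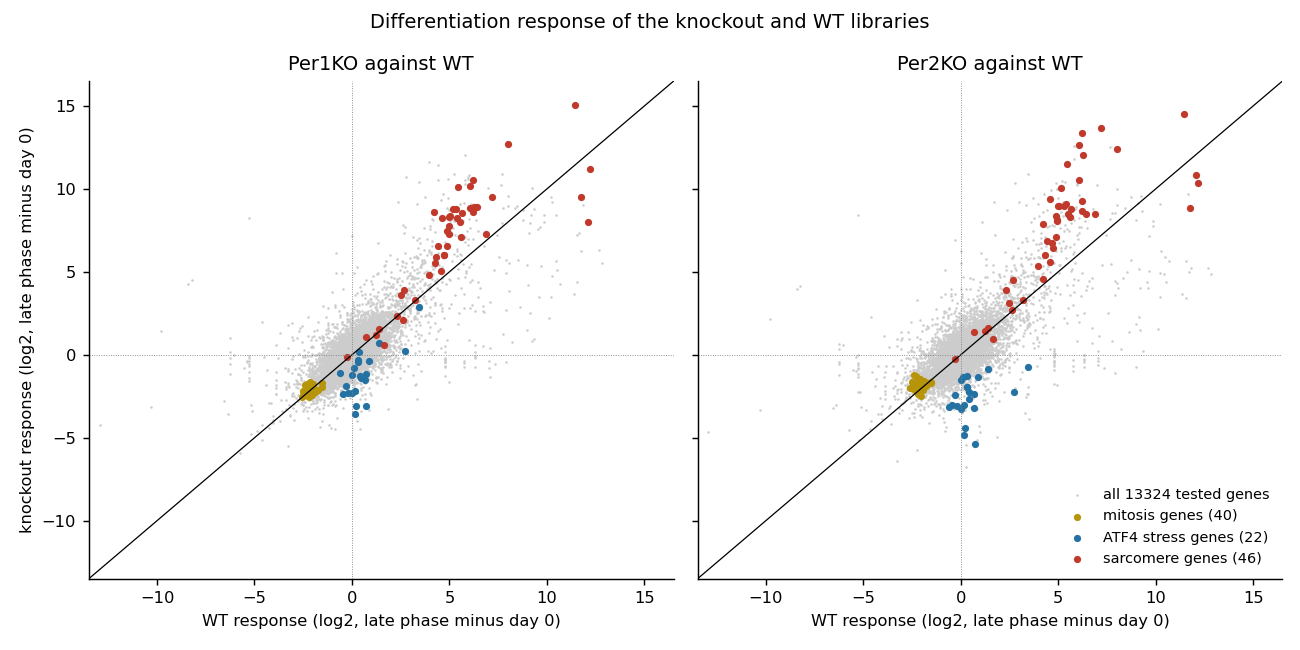
Differentiation response (log2, late phase minus day 0) of each tested gene in WT on the horizontal axis and in Per1KO (left) or Per2KO (right) on the vertical axis, with 3 gene groups coloured and the line of equal response drawn. Most sarcomere genes lie above the line, and all 22 ATF4 stress genes lie below it in both panels. Mitosis genes lie near the line, with 17 of 40 above it in Per1KO and 33 of 40 in Per2KO.

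To separate the kinds of difference, genes were placed in descriptive classes without a test. A response counted when it reached 0.5 on the log2 scale. In a stronger response, the knockout moved the same way as WT but farther. In a weaker one it moved less far, and in an opposite one it moved the other way. A difference was start-led when the start difference was at least 2 times the size of the end difference and end-led in the reverse case. Among the 10633 protein-coding genes that share under 10% of their 31-base sequences with other genes, 1074 differed at least 2-fold in both knockouts, 690 with a higher and 384 with a lower response. Over all 13324 genes the corresponding shares were 6.5% higher and 4.63% lower.

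Start-led genes outnumbered end-led genes among the higher differences, and the reverse held among the lower ones. Of the 690 higher ones, 284 (41.2%) were start-led and 125 (18.1%) end-led in both knockouts. Of the 384 lower ones, 70 (18.2%) were start-led and 153 (39.8%) end-led. A stronger response was the commonest class among the higher ones, with 241 genes, against 38 among the lower ones. Weaker responses numbered 38 and 79, and opposite responses 108 and 55. For comparison, 23.4% of all 10633 genes were start-led and 13.9% end-led in both knockouts. Opposite responses made up 1.53%, but these were the same 163 genes. By the definition of the class, every opposite response is large enough to count among the higher or lower differences. The 1.53% is therefore no background for that class.

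**Figure D2:**
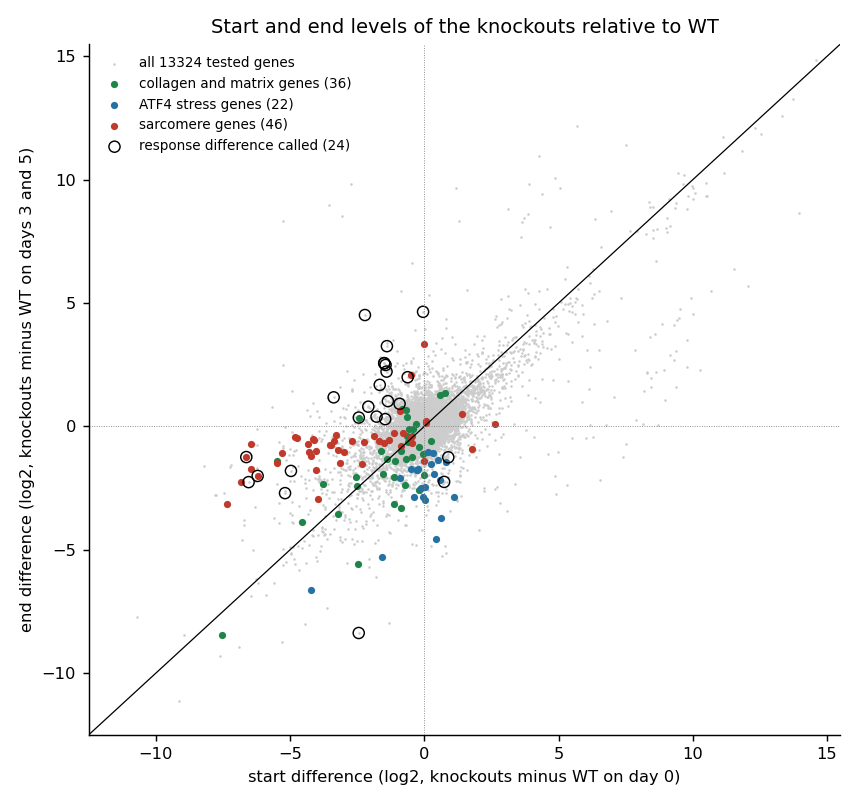
Start difference (horizontal axis) against end difference (vertical axis) of both knockouts relative to WT, each on the log2 scale, for every tested gene; points above the diagonal have a higher response in the knockouts. Sarcomere genes spread to the left with end differences nearer 0, ATF4 stress genes drop below 0 on the vertical axis, and the 24 called genes are ringed.

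Genes of the muscle differentiation programme had stronger responses in the knockouts, from very low levels on day 0. Myogenin (Myog, chr1:134289989-134292548 on GRCm38), the transcription factor that drives terminal muscle differentiation, stood at 124, 868 and 1060 CPM in WT on days 0, 3 and 5. Its levels were 5.35, 262 and 351 CPM in Per1KO and 2.91, 226 and 271 CPM in Per2KO. Every knockout level lay below the WT level of the same day, and as a ratio, though not in CPM, the gap was widest on day 0. Myog rose 7.78-fold in WT, 57.2-fold in Per1KO and 85.3-fold in Per2KO. The knockout response was higher by 3.16 on the log2 scale (SE 0.33; adjusted p = 0.0413, edgeR), with a start difference of -4.53 and -5.41 and an end difference of -1.65 and -1.96. The steeper climb of Myog thus ended below WT, and the same held for the next 3 genes.

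Mymx (chr17:45600971-45602102), which encodes the small membrane protein myomixer needed for myoblast fusion, measured 10, 226 and 159 CPM in WT. It measured 0.264, 46.5 and 43.3 CPM in Per1KO and 0.0394, 36.1 and 35.7 CPM in Per2KO. The Per2KO day 0 library held 2 counts, so its 913-fold increase has a 95% counting interval from 253 to 7543. The response difference of Mymx was 4.29 (SE 0.41; adjusted p = 0.034, edgeR).

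Cardiac alpha-actin (Actc1, chr2:114047282-114053548), the actin of embryonic muscle, stood at 64.8, 1833 and 1298 CPM in WT, at 1.38, 367 and 462 CPM in Per1KO, and at 0.551, 356 and 376 CPM in Per2KO. Its response difference was 4.2 (SE 0.37; adjusted p = 0.034, edgeR). Embryonic myosin heavy chain (Myh3, chr11:67078300-67102291), the motor of the first sarcomeres, stood at 140, 4851 and 7214 CPM in WT. In Per1KO it stood at 2.51, 2360 and 3216 CPM, and in Per2KO at 0.787, 2236 and 2424 CPM. Myh3 rose 43.1-fold in WT, 1109-fold in Per1KO and 2959-fold in Per2KO, a response difference of 5.39 (SE 0.44; adjusted p = 0.034, edgeR). Myh3 shares 11.2% of its 31-base sequences with other genes, so some of its reads could belong to related myosins. For both genes all knockout levels lay below the WT level of the same day.

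The sarcomere genes as a list moved the same way. Of 46 tested members, 30 had a response at least 2-fold higher in both knockouts (6.5% of all genes) and 2 at least 2-fold lower (4.63%). At an unadjusted p under 0.05, 14 were higher (8.29% of all genes) and 0 lower, and 2 passed after adjustment, Actc1 and Myh3 (0.18%). DESeq2 called 15 of the 46 higher and 0 lower. Rises passed the test for 19 members in WT (1.27% of all genes), 39 in Per1KO (10.3%) and 37 in Per2KO (9.88%). In each genotype 44 members rose at least 2-fold, so the genotypes differed in the calls and not in the number of members that rose. The median response was 4.98 in WT, 7.87 in Per1KO and 8.43 in Per2KO on the log2 scale, against medians near 0 over all genes. On day 0 the median difference from WT was -2.63 in Per1KO and -3.58 in Per2KO, and it narrowed to -0.54 and -0.83 in the late phase. Lower day 0 levels passed for 7 members in Per1KO (1.76% of all genes) and 11 in Per2KO (2.05%), and higher ones for none in either (2.56% and 2.66%).

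At the late phase, end differences below WT passed for 2 sarcomere genes in Per1KO (5.56% of all genes) and 5 in Per2KO (6.11%), and end differences above WT for 1 in each (5.49% and 5.91%). These shares lay near or under the background except for the 5 in Per2KO. Start-led differences made up 31 of the 46. In 12 members, a day 0 library held 3 counts or fewer; without them the median response difference over both knockouts was 2.19 rather than 2.27. The 2 members counted as lower, Myh2 and Mybpc2, held at most 2 counts in each day 0 library, so their fitted values say nothing of a fold, and no fold is given for Myl2 and Tcap, which held 0 counts on day 0 in all 3 genotypes.

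Alpha-skeletal actin (Acta1, the main actin of adult muscle) showed the same course without passing the test. It stood at 212, 8173 and 6973 CPM in WT, 9.17, 2916 and 5141 CPM in Per1KO, and 3.11, 2523 and 3977 CPM in Per2KO, with a response difference of 4.25 (SE 0.55; adjusted p = 0.0567, edgeR). The fast myosin light chain Mylpf (3.64, adjusted p = 0.0808), the calcium-storing Casq2 (3.57, adjusted p = 0.0775) and the myosin-binding Mybph (3.63, adjusted p = 0.0857) lay close behind. Titin (Ttn), the giant elastic protein of the sarcomere, differed less, at 123, 539 and 1022 CPM in WT, 75.3, 807 and 1449 CPM in Per1KO, and 56.2, 900 and 1689 CPM in Per2KO. Its response difference was 1.56 (SE 0.69; adjusted p = 0.366), and its late levels in the knockouts lay above WT on both days. For Tpm1, Tpm2, Tpm3 and Actn3 the differences lay between 0.06 and 0.17, and none passed. These genes, like others outside the top of a list, were picked after their values were seen.

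Short stretches upstream of 3 of these genes are shown because they hold CAGCTG, an E-box sequence to which MyoD and myogenin bind. Sequences are from RefSeq (GRCm38.p6), read 5′ to 3′, with the E-box in capitals.
Acta1, chr8:123894981-123895006, minus strand: gaggggcagaCAGCTGgggatactct
Mylpf, chr7:127211547-127211572, plus strand: tcctgggctcCAGCTGctgcaggcct
Mybph, chr1:134193359-134193384, plus strand: cctgaccccaCAGCTGggaatggttt
Their E-boxes begin 221, 51 and 79 bases before the start of the gene. Within the 250 bases before the start, CAGCTG, which reads the same on both strands, was present in 14 of 36 matched sarcomere genes (38.9%) and in 1124 of 9530 matched tested genes (11.8%). The windows of Myog, Actc1 and Myh3 held 0. The share was 54.5% in excitation-contraction genes, 42.9% in acetylcholine receptor and postsynaptic genes, 40.0% in Notch and Hey genes and 37.5% in fusion genes. It was 5.88% in DNA replication genes and 9.09% in mitosis genes, so a high share was not particular to sarcomere genes. A match describes the letters of this window and shows no binding.

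**Figure D3:**
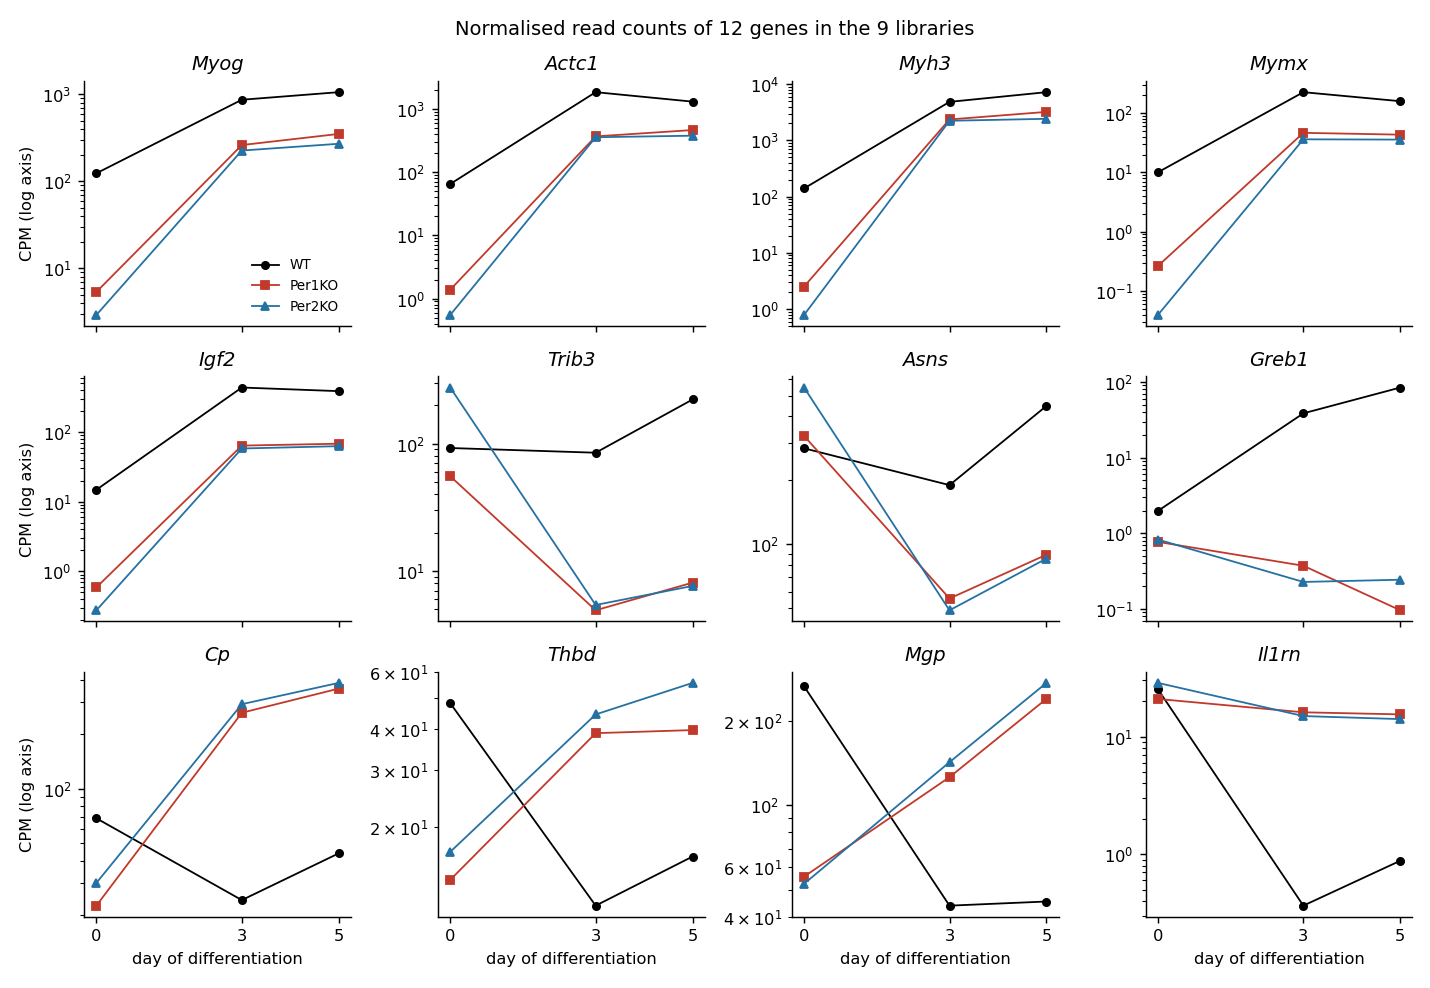
Normalised read counts (CPM, log axis) of 12 genes on days 0, 3 and 5 in WT, Per1KO and Per2KO, 1 library per point. Myog, Actc1, Myh3, Mymx and Igf2 climb from far lower knockout levels and stay below WT, Trib3 and Asns drop in the knockouts after day 0, Greb1 climbs in WT, and Cp, Thbd and Mgp cross.

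Among other genes of the muscle programme fewer differed. Of 16 fusion genes, 5 had a response at least 2-fold higher in both knockouts (6.5% of all genes) and 1 at least 2-fold lower (4.63%). Mymx was the 1 that passed (0.18% of all genes). Myomaker (Mymk, the membrane protein that acts with myomixer in fusion) stood at 94.9, 1287 and 1199 CPM in WT, 10.4, 619 and 1077 CPM in Per1KO, and 6.02, 550 and 898 CPM in Per2KO, with a response difference of 2.91 (SE 0.51; adjusted p = 0.104, edgeR). Among 20 excitation-contraction genes 4 were at least 2-fold higher and 0 lower (6.5% and 4.63% of all genes). The calcium channel subunit Cacna1s differed by 4.78 (adjusted p = 0.118, edgeR) and the reticulum protein sarcalumenin (Srl) by 2.52 (adjusted p = 0.153). Rises passed for 15 of the 20 in each knockout (10.3% of all genes in Per1KO, 9.88% in Per2KO) and for 2 in WT (1.27%). Members that rose at least 2-fold numbered 18 in WT, 18 in Per1KO and 17 in Per2KO. The acetylcholine receptor and postsynaptic list had 2 of 11 at least 2-fold higher (6.5% of all genes). In the muscle energy list 3 of 21 were higher and 2 lower (6.5% and 4.63% of all genes), with a median response difference of -0.11.

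Muscle creatine kinase (Ckm), which buffers ATP in muscle, had 10.6, 255 and 276 CPM in WT, 0.345, 151 and 435 CPM in Per1KO, and 0.236, 140 and 332 CPM in Per2KO. The response difference was 5.18 with a wide SE of 1.07 (adjusted p = 0.135, edgeR). By day 5 both knockouts exceeded WT, and on days 0 and 3 both lay below it. Among 19 myogenic regulators 3 were at least 2-fold higher and 0 lower (6.5% and 4.63% of all genes). Myod1, the determination factor of the myoblast lineage, stood at 155, 164 and 165 CPM in WT, 87.3, 119 and 138 CPM in Per1KO, and 58.7, 124 and 145 CPM in Per2KO. WT was level over time while both knockouts began lower, and the response difference of 0.79 (SE 0.22) had an adjusted p of 0.208 by edgeR.

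Insulin-like growth factor 2 (Igf2, chr7:142650766-142666816), an autocrine factor that promotes myoblast differentiation, gave a stronger response that stayed well below WT. It stood at 14.8, 436 and 387 CPM in WT, at 0.588, 63.9 and 68 CPM in Per1KO, and at 0.276, 58.1 and 62.7 CPM in Per2KO. The increase was 27.7-fold in WT, 112-fold in Per1KO and 219-fold in Per2KO, a response difference of 2.48 (SE 0.24; adjusted p = 0.034, edgeR). Both the start difference (-4.65 and -5.73) and the end difference (-2.64 and -2.77) passed in both knockouts. Exons of Igf2 overlap another annotated gene over 64.5% of their length, and strand use in counting is not given in the sources used here, so part of these reads may not be Igf2.

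Igf1 had 1.55, 48.7 and 119 CPM in WT, against 0.0406, 5.38 and 6.44 CPM in Per1KO and 0.0197, 4.31 and 9.77 CPM in Per2KO, all below WT; its response difference had an adjusted p of 0.623. The receptor Igf1r moved otherwise, at 82.8, 32.3 and 51.5 CPM in WT, 52.7, 92.8 and 76.9 CPM in Per1KO, and 53.6, 89.6 and 87.1 CPM in Per2KO. Its knockout levels lay below WT on day 0 and above WT on both late days (1.69, SE 0.35; adjusted p = 0.133). Over the 16 genes of the growth factor axis, 4 were at least 2-fold higher in both knockouts and 0 lower (6.5% and 4.63% of all genes). Imprinted genes are expressed from a single parental allele and include growth regulators. Of 12 tested, 6 were at least 2-fold higher and 1 lower (6.5% and 4.63% of all genes). H19, the noncoding neighbour of Igf2, stood at 1668, 11770 and 8224 CPM in WT, 460, 5972 and 8526 CPM in Per1KO, and 253, 5918 and 7476 CPM in Per2KO, with a response difference of 1.77 (SE 0.45; adjusted p = 0.187).

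A pair of called genes shared the stronger response without ending below WT. Decorin (Dcn, chr10:97479609-97518143), a proteoglycan that binds collagen, stood at 51.5, 540 and 603 CPM in WT, 6.57, 679 and 728 CPM in Per1KO, and 13.7, 711 and 814 CPM in Per2KO. It began below WT in both knockouts, and its end difference did not pass (0.3 and 0.42). The response difference was 2.8 (SE 0.25; adjusted p = 0.034, edgeR). Nrep, a small intracellular protein expressed in regenerating tissue, stood at 32.8, 61.1 and 61.4 CPM in WT, 8.29, 104 and 106 CPM in Per1KO, and 7.17, 104 and 112 CPM in Per2KO. It crossed from below to above WT, with a response difference of 2.89 (SE 0.19; adjusted p = 0.034).

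Opposite responses formed the largest class among the 24 called genes, with 11 members, and in 10 of them the knockouts moved up while WT moved down. For 8 of those 10 the knockout rise passed the test on its own in both knockouts, and for 4 the WT fall did. In 17 of the 24 genes (70.8%) the knockouts crossed from one side of WT to the other in both comparisons. Crossing in both held for 24.6% of all tested genes and 50.8% of those at least 2-fold different in both knockouts. The opposite class held 1.63% and 14.6% of these same sets. By its definition, an opposite response always differs at least 2-fold from WT, so the same 217 genes make up both shares. The rise between these shares therefore follows from the definition and shows no enrichment. Selecting genes for a large response difference favours start and end differences of opposite sign.

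Ceruloplasmin (Cp, chr3:19957054-20009145), a copper-carrying ferroxidase, stood at 68.6, 24.3 and 44 CPM in WT, 22.6, 262 and 357 CPM in Per1KO, and 30.2, 293 and 384 CPM in Per2KO. On day 0 both knockouts lay below WT and on both late days far above it. Cp increased 13.7-fold in Per1KO and 11.2-fold in Per2KO, both past the test, and the WT response was -1.01 (adjusted p = 0.17). The response difference was 4.65 (SE 0.48; adjusted p = 0.0413, edgeR).

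Thrombomodulin (Thbd, chr2:148404466-148408188), a thrombin receptor of the cell surface, stood at 48.2, 11.5 and 16.3 CPM in WT, 13.8, 38.9 and 39.8 CPM in Per1KO, and 16.8, 44.5 and 55.6 CPM in Per2KO. It fell in WT and rose in both knockouts, and the start difference below WT and the end difference above WT passed in both. The response difference was 3.34 (SE 0.31; adjusted p = 0.034, edgeR). Hemicentin 1 (Hmcn1, chr1:150562524-150993435), an extracellular matrix protein, stood at 15.1, 6.57 and 6.16 CPM in WT, 4.7, 39.2 and 27.4 CPM in Per1KO, and 6.14, 41.9 and 42.4 CPM in Per2KO. Its late knockout levels lay above every WT level, and the response difference was 4.05 (SE 0.34; adjusted p = 0.034).

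Further called genes of this kind are named because they passed, not by the rule for named genes, as were Ptpn5, Adam19, Card10 and Plekha6 below. Fap, a membrane serine protease of activated fibroblasts, stood at 11.2, 0.912 and 1.76 CPM in WT, 3.53, 7.83 and 6.92 CPM in Per1KO, and 4.43, 8.55 and 7.77 CPM in Per2KO (4.06, adjusted p = 0.0463, edgeR). WT was higher on day 0 than late, and each knockout was lower on day 0 than late.

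Rapgef3 (EPAC1), an exchange factor activated by cyclic AMP, stood at 4.94, 0.182 and 0.22 CPM in WT, 1.2, 4.29 and 5.24 CPM in Per1KO, and 0.945, 3.7 and 5.36 CPM in Per2KO. The WT late libraries held 1 count each, and day 0 exceeded them 24.8-fold with a 95% counting interval from 6.37 to 213. Its fitted response difference, 6.73 (SE 0.64; adjusted p = 0.034, edgeR), rests on those counts.

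The Notch regulator Dtx4, the chloride channel relative Ano5 of muscle membranes, the adhesion receptor Adgra2 and the transcription factor Tshz3 had response differences of 2.62, 2.38, 2.18 and 1.84, with adjusted p-values from 0.034 to 0.0481. Ano5 stood at 90.7, 60.9 and 56.1 CPM in WT, 49.1, 110 and 130 CPM in Per1KO, and 25.5, 113 and 123 CPM in Per2KO. Levels of all 4 genes lay below WT on day 0 and above WT on both late days in both knockouts.

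One opposite response ran the other way. Ptpn5 (chr7:47077795-47133684), which encodes the phosphatase STEP, stood at 3.95, 35.9 and 43.8 CPM in WT, 0.649, 0.104 and 0.0961 CPM in Per1KO, and 0.807, 0.103 and 0.171 CPM in Per2KO. It rose in WT and fell in both knockouts, whose late libraries held 4 to 7 counts each. The response difference was -5.93 (SE 0.45; adjusted p = 0.034, edgeR). Greb1, an estrogen-responsive gene, ran in parallel at 1.98, 38.5 and 84.4 CPM in WT, 0.771, 0.373 and 0.0961 CPM in Per1KO, and 0.827, 0.228 and 0.244 CPM in Per2KO. Its response difference of -6.68 (SE 0.97) had an adjusted p of 0.0747.

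Opposite responses in both knockouts that met the abundance and uniqueness filters numbered 77, called or not, and the largest besides Thbd and Greb1 included Mgp, Sema3c and Il33, which did not pass. Matrix Gla protein (Mgp, an inhibitor of calcification) stood at 266, 43.8 and 45.3 CPM in WT, 55.6, 126 and 240 CPM in Per1KO, and 52.4, 142 and 273 CPM in Per2KO (4.43, SE 0.6; adjusted p = 0.0653, edgeR). Semaphorin 3C (Sema3c, a secreted guidance cue) stood at 223, 54.5 and 106 CPM in WT, 76.7, 667 and 536 CPM in Per1KO, and 162, 793 and 654 CPM in Per2KO (4.04, SE 0.49; adjusted p = 0.0535). Il33, an alarmin cytokine, stood at 135, 54.2 and 29 CPM in WT, 25.3, 47.9 and 59 CPM in Per1KO, and 18.7, 51.2 and 61.8 CPM in Per2KO (3.03, adjusted p = 0.0747). In all 3 genes WT was highest on day 0, whereas each knockout was lowest on day 0.

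The ATF4 stress genes had a lower response in the knockouts, and for none of the 22 was the difference start-led in both. All 22 tested members had a lower response in both knockouts, 15 of them at least 2-fold in both (4.63% of all genes) and 0 at least 2-fold higher (6.5%). At an unadjusted p under 0.05, 20 were lower (6.7% of all genes) and none passed after adjustment (0.18%). Falls passed for 10 members in Per1KO (7.94% of all genes), 17 in Per2KO (7.7%) and 0 in WT (0.961%). Late levels below WT passed for 18 in Per1KO (5.56% of all genes) and 20 in Per2KO (6.11%). Day 0 levels below WT passed for 1 in Per1KO (1.76%) and 0 in Per2KO (2.05%). The median start difference was -0.62 in Per1KO and 0.57 in Per2KO, and the median end difference -2.1 and -2.18. DESeq2 called 17 of the 22 lower, and a fit with a term for day 5 against day 3 called 14.

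Trib3, a pseudokinase induced by ATF4 that feeds back on it, stood at 92.4, 84.8 and 222 CPM in WT, 55.5, 4.91 and 8.1 CPM in Per1KO, and 276, 5.4 and 7.62 CPM in Per2KO. The fall was to 0.117 of the day 0 level in Per1KO and 0.0236 in Per2KO, and both passed. Its response difference was -4.98 (SE 0.81; adjusted p = 0.0914, edgeR). Slc7a11, the cystine transporter, stood at 19.3, 11.5 and 32.3 CPM in WT, 18.5, 1.86 and 1.3 CPM in Per1KO, and 48, 1.61 and 1.75 CPM in Per2KO (-4.35, SE 0.75; adjusted p = 0.102). For both genes each late knockout level lay below every WT level.

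Asparagine synthetase (Asns) stood at 283, 190 and 447 CPM in WT, 323, 55.6 and 89.4 CPM in Per1KO, and 545, 49 and 85.7 CPM in Per2KO (-2.76, SE 0.76; adjusted p = 0.203, edgeR). Chac1, which degrades glutathione, stood at 106, 145 and 189 CPM in WT, 62.2, 14.2 and 30.1 CPM in Per1KO, and 188, 11.9 and 28.2 CPM in Per2KO (-3.01, adjusted p = 0.192). Atf4 itself, whose protein is set mainly by translation, stood at 658, 693 and 955 CPM in WT, 524, 394 and 436 CPM in Per1KO, and 978, 372 and 423 CPM in Per2KO (-1.14, SE 0.32; adjusted p = 0.208). WT was highest on day 5 for these 3 genes, and Per2KO was highest on day 0. Leaving out WT day 5 changed the list's median response difference from -2.33 to -1.74, and leaving out WT day 3 to -2.68.

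Stretches upstream of 4 ATF4 stress genes are shown because they hold TGATGNAA, the core of the element bound by ATF4 together with C/EBP proteins. They are from RefSeq (GRCm38.p6), read 5′ to 3′ in the direction of the motif, with the motif in capitals; the 2 Slc7a11 windows overlap and lie on opposite strands.
Slc7a11, chr3:50443662-50443689, minus strand: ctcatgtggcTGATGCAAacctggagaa
Slc7a11, chr3:50443643-50443670, plus strand: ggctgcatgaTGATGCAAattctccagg
Chac1, chr2:119351039-119351066, minus strand: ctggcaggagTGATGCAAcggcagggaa
Pck2, chr14:55540153-55540180, minus strand: tgtaagatacTGATGTAActttgaaggc
Asns, chr6:7693215-7693242, minus strand: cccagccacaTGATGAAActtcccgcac
Searched on both strands in the 250 bases before the start, TGATGNAA was present in 7 of 20 matched ATF4 stress genes (35.0%), in 1 of 36 sarcomere genes (2.78%) and in 181 of 9530 tested genes (1.9%). Among the other lists the share was highest in muscle energy genes (15.8%) and acetylcholine receptor and postsynaptic genes (14.3%). The median response difference was -2.76 over the 7 genes with the motif and -1.85 over the 13 without it, and 4 of 7 and 9 of 13 were at least 2-fold lower in both knockouts. Trib3 held 0 matches. Atf3 (-1.52) and Nupr1 (-1.46), not shown, had the smallest differences of the 7.

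Responses confined mainly to the knockouts included 3 called genes. Lgr6, a receptor for R-spondins, stood at 12.7, 17.7 and 17.8 CPM in WT, 33.6, 3.56 and 2.88 CPM in Per1KO, and 13.4, 4.74 and 3.87 CPM in Per2KO (-2.99, SE 0.32; adjusted p = 0.0463, edgeR). Ero1l, an oxidase of protein folding in the endoplasmic reticulum, stood at 60.6, 70.8 and 82.2 CPM in WT, 77.4, 30.8 and 29.2 CPM in Per1KO, and 163, 36.7 and 32 CPM in Per2KO (-2.14, SE 0.23; adjusted p = 0.0463). Both genes fell in both knockouts, to levels below all WT libraries. Adam19, a membrane protease, stood at 165, 233 and 228 CPM in WT, 54.8, 279 and 270 CPM in Per1KO, and 65.5, 298 and 284 CPM in Per2KO (1.75, SE 0.19; adjusted p = 0.0463). It rose in both knockouts from below WT, and its end difference did not pass.

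In 3 further called genes a fall passed in WT, while the knockouts fell less or not at all. Il1rn, the interleukin-1 receptor antagonist, stood at 25.3, 0.365 and 0.88 CPM in WT, 20.9, 16.1 and 15.4 CPM in Per1KO, and 28.6, 14.9 and 14.1 CPM in Per2KO. WT day 3 and day 5 held 2 and 4 counts, and WT day 0 exceeded the late level 42.3-fold (95% counting interval 19 to 117). The response was -5.39 in WT, -0.41 in Per1KO, which did not pass, and -0.98 in Per2KO, which did. The start differences were -0.28 and 0.18, and the end differences, 4.71 and 4.59, passed; the response difference was 4.69 (SE 0.4; adjusted p = 0.034, edgeR). The scaffold Card10 stood at 19.1, 2.37 and 1.54 CPM in WT, 7.44, 10 and 9.85 CPM in Per1KO, and 6.59, 12.3 and 12.7 CPM in Per2KO (3.93). Plekha6 stood at 16.4, 1.64 and 0.88 CPM in WT, 1.26, 3.27 and 3.07 CPM in Per1KO, and 1.97, 2.65 and 2.7 CPM in Per2KO (4.56). Plekha6 rose in Per1KO, by 1.33 on the log2 scale, and its Per2KO response of 0.44 did not pass.

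No cell cycle gene of the lists differed at least 2-fold in both knockouts, although the list medians turned with the WT library used. Of 40 DNA replication genes and 40 mitosis genes, 0 had an unadjusted p under 0.05 by edgeR or a call by DESeq2. The median response of mitosis genes was -2.17 in WT, -2.19 in Per1KO and -1.86 in Per2KO, and that of replication genes -1.45, -2.05 and -1.64. The median response difference of mitosis genes was 0.17, but 1.01 without WT day 3 and -0.32 without WT day 5, and that of replication genes was -0.35, but 0.68 and -0.88, so neither list has a stable direction. Mki67, a marker of cycling cells, stood at 269, 69 and 32.8 CPM in WT, 320, 133 and 45.4 CPM in Per1KO, and 215, 138 and 50.3 CPM in Per2KO. The cyclin kinase inhibitor Cdkn1a, which holds differentiating cells out of the cycle, stood at 427, 1802 and 1791 CPM in WT, 206, 1026 and 1509 CPM in Per1KO, and 227, 940 and 1294 CPM in Per2KO. It rose in all 3 genotypes, and its response difference was 0.39 (SE 0.39; adjusted p = 0.696, edgeR).

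Circadian clock genes split. Of 23 tested, 1 was at least 2-fold higher in both knockouts, which is under the background of 6.5% of all genes. At least 2-fold lower were 3 (4.63% of all genes). By edgeR at an unadjusted p under 0.05, 4 were higher and 4 lower (8.29% and 6.7% of all genes). Nfil3, a repressor of clock output, stood at 23.7, 44.9 and 62.7 CPM in WT, 13.8, 11.9 and 13.3 CPM in Per1KO, and 37, 12.9 and 14 CPM in Per2KO (-1.97, SE 0.31; adjusted p = 0.0848, edgeR). Arntl, which encodes BMAL1, stood at 26.8, 34.1 and 38 CPM in WT, 21.5, 15.3 and 13 CPM in Per1KO, and 35.9, 20.1 and 16.6 CPM in Per2KO (-1.21, SE 0.27; adjusted p = 0.153). Both climbed in level over the days in WT and were lower late than on day 0 in each knockout. The repressor Ciart differed by -3.38, Per1 by 0.89, Per2 by 0.26 and Per3 by 1.22, and none passed. Times of day of sampling are not given in the sources used here.

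**Figure D4:**
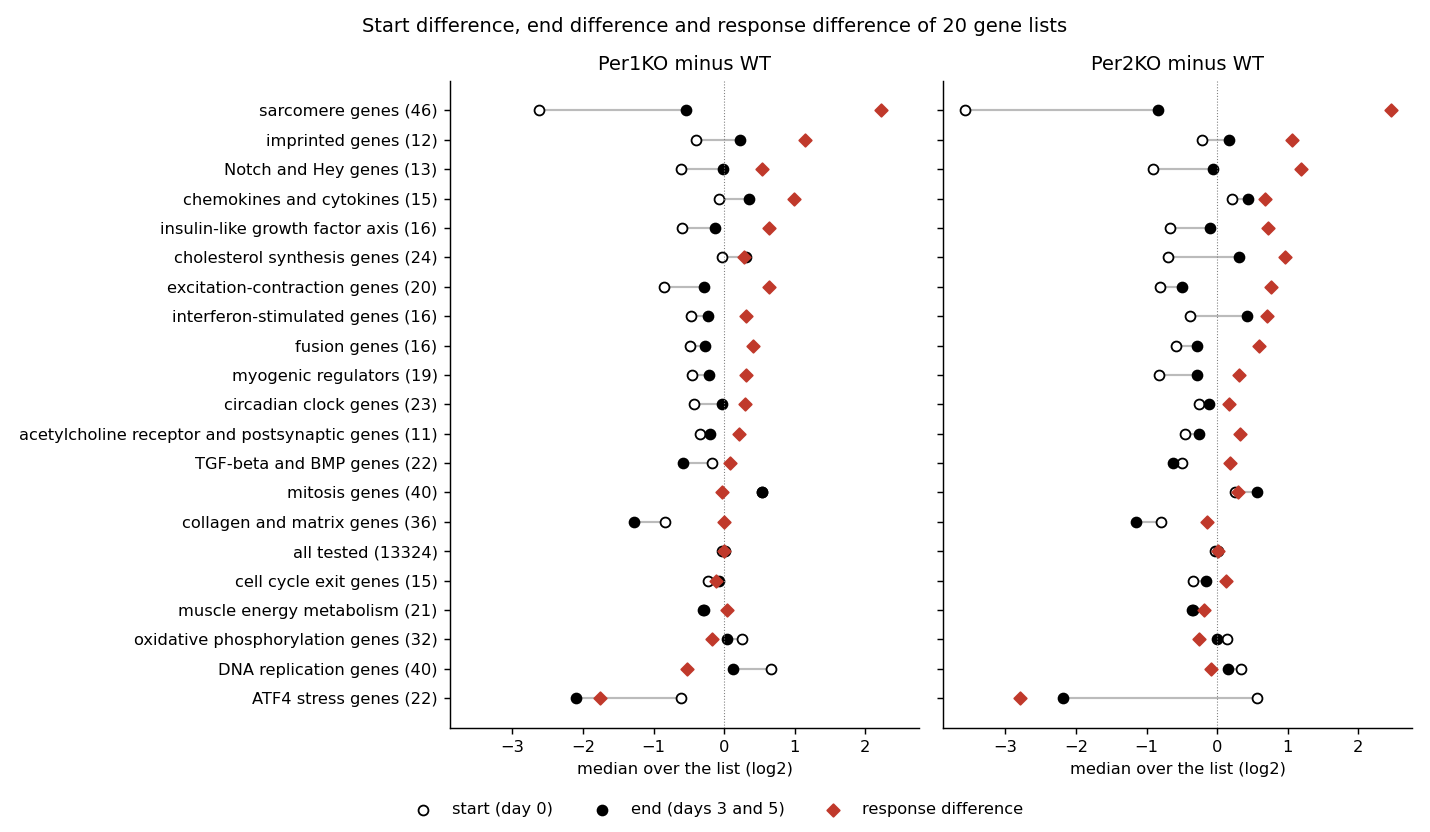
Median start difference (open circles), end difference (filled circles) and response difference (red diamonds) of 20 gene lists and of all tested genes, for Per1KO (left) and Per2KO (right) relative to WT on the log2 scale; tested members are in brackets. Sarcomere genes start far below WT and end near it, while ATF4 stress genes lie far below WT at the end.

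Notch pathway genes hold muscle precursors undifferentiated. Of 13 tested, 6 were at least 2-fold higher in both knockouts and 1 lower (6.5% and 4.63% of all genes). The ligand Dll1 stood at 7.77, 18.1 and 11.9 CPM in WT, 2.37, 25.5 and 18.4 CPM in Per1KO, and 2.03, 23.7 and 17.9 CPM in Per2KO (2.33, adjusted p = 0.127, edgeR). The ligand Jag1 ran the other way, at 9.89, 29.9 and 45.3 CPM in WT, 7.18, 13.4 and 11.7 CPM in Per1KO, and 10.2, 12.2 and 11.9 CPM in Per2KO (-1.4, adjusted p = 0.193). Late knockout levels lay above WT on both days for Dll1 and below WT for Jag1. The receptors Notch3 and Notch2 differed by 1.69 and 1.2.

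Collagen and matrix genes had median levels below WT in both phases, and their response differences went both ways. Of 36 tested, 5 had a response at least 2-fold higher and 7 at least 2-fold lower in both knockouts (6.5% and 4.63% of all genes). The median start difference was -0.84 in Per1KO and -0.79 in Per2KO, the median end difference -1.27 and -1.16, and the median response difference 0 and -0.14. Day 0 levels below WT passed for 4 members in Per1KO (1.76% of all genes) and 3 in Per2KO (2.05%), and late levels below WT for 13 (5.56%) and 12 (6.11%). The fibroblast markers given above were likewise lower in the knockouts, and their part in these values was not tested. Col8a1, a short-chain collagen, stood at 93.2, 463 and 864 CPM in WT, 60.4, 67.7 and 61.8 CPM in Per1KO, and 42.1, 67.4 and 67.9 CPM in Per2KO (-2.44, SE 0.46; adjusted p = 0.113, edgeR). Periostin (Postn), a matrix protein of injured tissue, stood at 2.68, 134 and 694 CPM in WT, 1.38, 26.3 and 67.5 CPM in Per1KO, and 1.08, 22 and 71.9 CPM in Per2KO, with an adjusted p of 0.654. All knockout levels of both genes lay below WT.

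Signalling genes of the TGF-beta and BMP pathways divided evenly, with 3 of 22 at least 2-fold higher and 3 lower (6.5% and 4.63% of all genes). The ligand Tgfb2 stood at 26.6, 88.1 and 113 CPM in WT, 16.6, 27 and 26.1 CPM in Per1KO, and 19.7, 23.2 and 24.9 CPM in Per2KO (-1.44, adjusted p = 0.109, edgeR). The BMP antagonist Nog stood at 4.8, 1.64 and 3.3 CPM in WT, 8.01, 18.8 and 22.7 CPM in Per1KO, and 6.95, 22.1 and 21.7 CPM in Per2KO (2.5, adjusted p = 0.112). Late knockout levels were below WT for Tgfb2 and above it for Nog.

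Chemokine and cytokine genes had 6 of 15 at least 2-fold higher and 2 lower (6.5% and 4.63% of all genes). Ccl2, a monocyte attractant, stood at 9.74, 5.11 and 3.08 CPM in WT, 27.3, 39.4 and 38 CPM in Per1KO, and 17.4, 45.7 and 45.8 CPM in Per2KO, above WT in all libraries (2.18, SE 0.34; adjusted p = 0.0794, edgeR). Interferon-stimulated genes had 4 of 16 at least 2-fold higher and 1 lower, against the same shares of all genes.

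Cholesterol synthesis genes had a positive response difference in both knockouts in 18 of 24, against 42.2% of all genes, and a negative one in 1. Rises passed for 8 members in Per2KO (9.88% of all genes), for 2 in Per1KO, which is under the background of 10.3%, and for 0 in WT (1.27%). Insig1, a sterol sensor that retains the SREBP machinery, stood at 97.9, 97.1 and 94.3 CPM in WT, 81.2, 203 and 147 CPM in Per1KO, and 46.2, 191 and 143 CPM in Per2KO (1.51, SE 0.32; adjusted p = 0.139, edgeR). WT was level over time, and both knockouts were above it late. Oxidative phosphorylation genes had a negative difference in both knockouts in 27 of 32, against 41% of all genes, with 0 at least 2-fold in either direction. Their median of -0.21 became -0.02 without WT day 3, and by day it was -0.44 in Per1KO and -0.5 in Per2KO on day 3 but 0.12 and 0.03 on day 5.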

How the data were processed

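Poly(A)-selected RNA was sequenced as single reads, per the labels' protocols. The values are whole-number read counts per gene, deposited by the authors as 1 table for the 9 libraries. The submitters' processing notes name HISAT2 2.1.0, CASAVA 1.8 and build mm10. The counting program, its annotation and its use of strand are not given in the sources used here. The table has 0 lines that name no gene.

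The test covered the 13324 of 47729 genes that reached 1 CPM (counts scaled to depth) in 3 or more libraries. Counts were scaled by TMM and fitted in R 4.3.3 by the quasi-likelihood method of edgeR 4.0.16 (with limma 3.58.1), in a design of genotype by phase (day 0, or days 3 and 5), which leaves 3 residual degrees of freedom. All contrasts come from this 1 fit. Benjamini-Hochberg adjusted p-values were called under 0.05, over all tested genes. Standard errors were derived from the log2 difference and its F statistic. Alternatives were DESeq2 1.42.0, its size factors within edgeR, other filters, a term for day 5 against day 3, thinning of the knockout libraries to the mean WT total, and leaving out each late library. The fit was tested on simulated data. For counts of 1 to 7 in a library, exact 95% intervals of ratios (Clopper-Pearson, conditional on the sum) cover counting error only.

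Positions and gene classes are from GENCODE M21 on GRCm38 and promoters from RefSeq, matched by symbol for 9530 tested genes. The gene lists and members were chosen with earlier results of these data known. Named genes were a fixed set (Per1, Per2, Myod1, Myog, Myh3, Ckm, Igf2, Cdkn1a, Mki67), the called genes with the 8 largest differences in each direction, averaging 10 CPM or more and under 10% shared 31-base sequences, the 2 largest differences in each direction of each list, and the 6 largest opposite responses. Other names were chosen after their values were seen. Of the 24 called genes, 1 is counted but not reported here.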

Additional observations from a re-analysis of the deposited data

Results flagged for a closer look

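For 24 genes the test of the response difference itself passed, so that the change from day 0 to days 3 and 5 differed between the knockouts together and WT (edgeR quasi-likelihood, adjusted p from 0.034 to 0.0481). For the 23 reported here, the differences, on the log2 scale as knockouts minus WT, were lower for Ptpn5 (-5.93), Lgr6 (-2.99) and Ero1l (-2.14). They were higher for Adam19 (1.75), Tshz3 (1.84), Adgra2 (2.18), Ano5 (2.38), Igf2 (2.48), Dtx4 (2.62), Dcn (2.8) and Nrep (2.89). They were higher as well for Myog (3.16), Thbd (3.34), Card10 (3.93), Hmcn1 (4.05), Fap (4.06), Actc1 (4.2) and Mymx (4.29). The 5 highest were Plekha6 (4.56), Cp (4.65), Il1rn (4.69), Myh3 (5.39) and Rapgef3 (6.73). Each of the 24 had the same sign in both knockouts. Thinning the knockout libraries to the mean WT total kept 21 of the 24 called.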

How the results depend on the processing

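With 1 library per population and day, the calls depend on how the spread is estimated. The 24 calls for both knockouts became 0 without any 1 of the 6 late libraries (range 0 to 0), although 1359 to 3054 genes then had an unadjusted p under 0.05. DESeq2 called 248 genes for Per1KO, 476 for Per2KO, 585 for both together and 3 between the knockouts. A term for day 5 against day 3 gave 56, 322 and 434 for the first 3 of these, and testing without the filter on low counts gave 315, 567, 679 and 12. Thinning gave 59 for both together. The cause of these differences was not tested. All 24 genes were called by DESeq2 with the same sign, and size factors, which moved the median difference over all genes by no more than 0.02, called all 24. The opposite class shrank from 163 to 36 genes when a response had to reach 1 on the log2 scale, and end-led genes from 125 to 71 (higher) and from 153 to 82 (lower) at a ratio of 3. The sarcomere median lay between 1.59 and 2.72 and the ATF4 stress gene median between -2.68 and -1.74 over the alternatives run.

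The sign of the response difference turned for 14 named genes, none of them called. Leaving out 1 late library gave ranges of -0.087 to 0.53 for Atp5a1, -0.38 to 1.84 for Uhrf1 and -0.11 to 0.72 for Per2, which were positive with all libraries. The ranges of genes that were negative with all libraries were -0.78 to 0.65 for Cdca8, -0.76 to 0.00025 for Chrnd, -0.34 to 0.17 for Ebp, -0.52 to 0.102 for Igf2r, -1.45 to 0.48 for Isg15, -0.67 to 0.054 for Jag2, -0.51 to 0.072 for Jph1 and -0.84 to 0.72 for Mad2l1. The extremes past 0 came without WT day 3 (Cdca8, Ebp, Jag2, Mad2l1, Per2) or WT day 5 (the others). By DESeq2 the difference was 0.602 for Grb10, 0.46 for Mybpc2 and 0.16 for Myh2, and on thinned libraries it was 0.0596 for Mybpc2 and -0.404 for Per2. No paired analysis was possible because the labels give the libraries no replicate numbers; the term for day 5 against day 3, above, blocks the late libraries by day. A count of 0 in a WT library allows a level of up to 0.424 to 0.66 CPM.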
